A study of Homo sapiens with 4 samples.

Results

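The genes of the Wnt pathway described here were 46 ligands, receptors, antagonists and intracellular transducers, taken as every probe set of the arrays whose annotation names exactly 1 of them. Of these, 43 genes were measured, by 117 probe sets, among 18132 genes on the arrays. Total RNA came from cells labelled MDA-MB-231, the name of a human breast cancer line of the triple-negative, mesenchymal type. The 2 ELK3 KD arrays came from cells with a stably integrated retroviral shRNA (Dharmacon) against ELK3, an ETS family transcription factor, and the 2 control arrays from cells carrying a control shRNA (Dharmacon). Both kinds of cells were stable lines grown with fetal bovine serum, and each group is labelled with biological repeats 1 and 2. Several lines were made in the study, but the labels do not say which line an array came from, so p-values measure the spread between these arrays alone. The number of arrays limits the precision, and the smallest two-sided p that exact permutation of 2 arrays per group allows is 0.333.

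Wnt proteins are secreted lipid-modified ligands that bind Frizzled receptors. With the co-receptors LRP5 and LRP6 they disassemble a destruction complex built on axin, so that beta-catenin accumulates and acts with TCF/LEF factors in the nucleus. Other Wnt proteins, WNT5A and WNT11 among them, can act through ROR and RYK receptors or planar polarity proteins without beta-catenin, and are known for roles in cell movement. Dickkopf proteins block LRP5 and LRP6, while SFRP proteins and WIF1 bind the ligands. In breast cells the pathway is known for its part in stem cell maintenance and tumour growth.

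Values are log2 RMA intensities on 1 scale, with array medians between 6.23 and 6.27. Each gene was read from its brightest probe set, groups were compared with limma, and a gene was called when its p, adjusted by Benjamini-Hochberg over all genes, was under 0.05. As a guide to background served 5.71, a level under which 95% of 359 probe sets for olfactory receptors fell. ELK3 itself read 8.34 and 8.33 in ELK3 KD arrays, against 10.85 and 10.82 in control arrays. Markers of the labelled line differed between the groups as well. All 10 genes of a list of mesenchymal MDA-MB-231 markers were lower in ELK3 KD arrays, with list means of 7.42 and 7.30 in ELK3 KD and 11.62 and 11.56 in control arrays. A list for HEK293, the kidney-derived line in which retroviral particles are often produced, had 5 of its 8 measured genes higher and none lower by limma, with list means of 7.77 and 7.82 in ELK3 KD and 5.28 and 5.11 in control arrays. PAX2 and NEFM of that list lay below the guide in both groups. STMN2, also not called, averaged 6.03 in ELK3 KD and 6.33 in control arrays, above the guide in both. Of 3 genes of the 9p21 region, which is deleted in MDA-MB-231, MTAP was lower by 0.45 and the others higher. MTAP averaged 6.37 in ELK3 KD and 6.81 in control arrays, above the guide in both. CDKN2A averaged 11.38 in ELK3 KD and 4.85 in control arrays, and CDKN2B averaged 6.97 in ELK3 KD and 3.03 in control arrays. ESR1 and PGR, the hormone receptor genes, were not called, PGR being below the guide, and ERBB2 was lower by 0.38. The levels of CDKN2A and CDKN2B in the ELK3 KD arrays, both above the guide, go against the labelled line. The part of these differences in the results on Wnt genes was not tested, and an effect of ELK3 loss and a difference between the lines cannot be told apart here.

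Of the 43 measured Wnt genes, 20 had higher and 7 had lower levels in ELK3 KD cells, and 16 were not called. Over all genes tested, 49.5% were called, 26.0% higher and 23.5% lower. The median log2 fold change was 0.21 over the Wnt genes and -0.05 over all genes. Of the Wnt genes 46.5% were called higher and 16.3% lower. Groups did not overlap for 35 of the 43 genes, and for 76.2% of all genes. Both group means lay above the guide for 25 of the Wnt genes and below it for 11. Centring each array on its median gene moved all log2 fold changes down by 0.14 and gave 15 higher and 12 lower Wnt genes, with 3883 higher and 6724 lower among all genes. Leaving out ELK3 KD replicate 1 left 12 higher and 5 lower. By the methods' t-test after Benjamini-Hochberg adjustment 15 of the 27 calls were kept. Those of WNT2B, WNT5B, WNT11, RSPO3, FZD6, FZD9, LRP5, LRP6, ROR1, DKK3, AXIN2 and TCF7L2 were lost. Without adjustment, at p under 0.05, that t-test kept 26 of the 27 calls, all but that of RSPO3. Past a 4-fold difference lay WNT5A, FZD8 and LEF1 on the higher side and DKK1 on the lower side, against 3.19% of all genes higher and 2.32% lower.

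**Figure D1:**
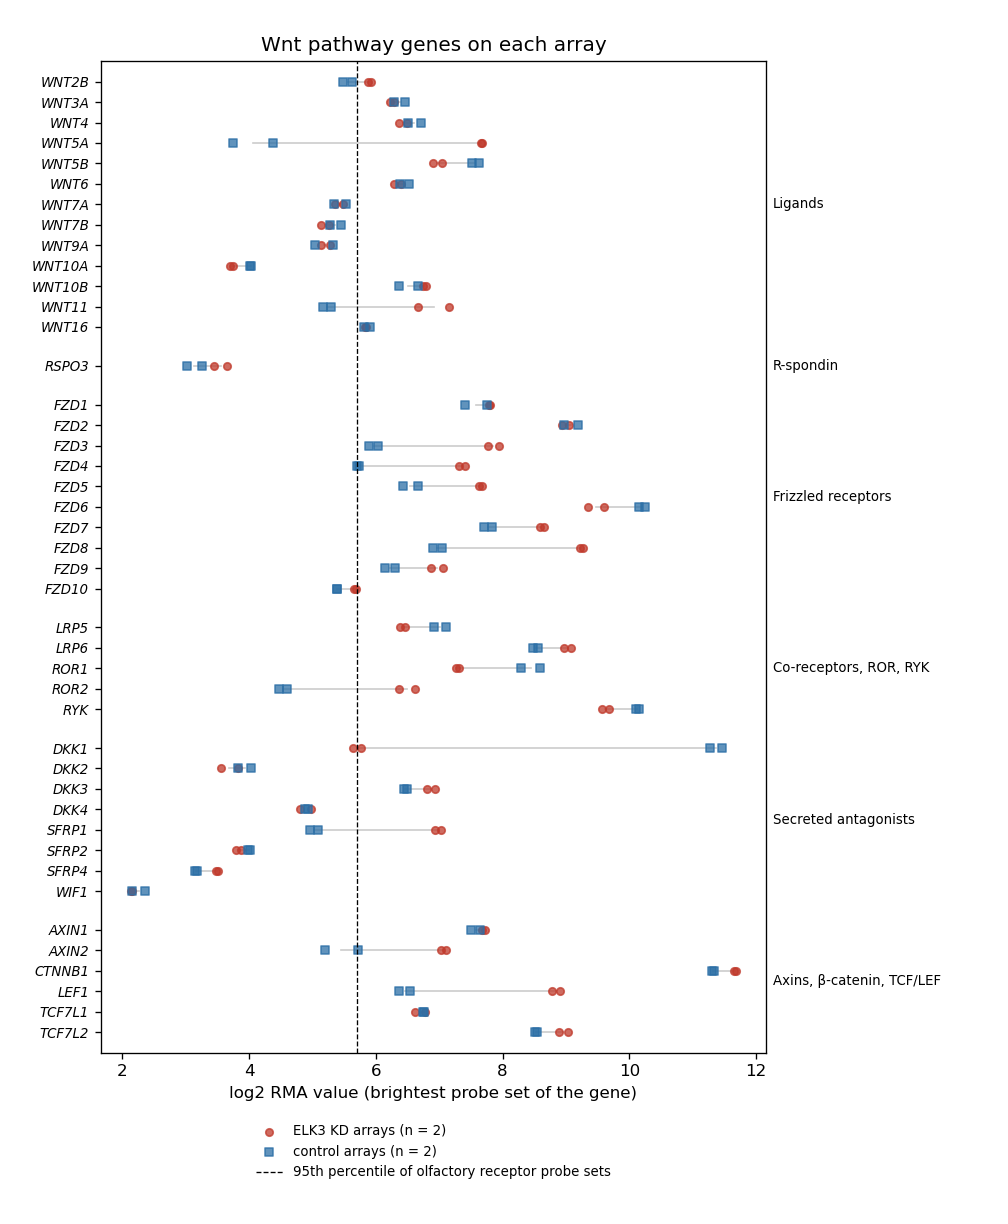
Log2 RMA value of each of the 43 measured Wnt genes on the 2 ELK3 KD arrays (circles) and the 2 control arrays (squares), grouped by role, with a grey line joining the group means and a dashed line at the background guide of 5.71. The widest gaps are those of DKK1, at 5.70 on average in ELK3 KD and 11.36 in control arrays, and WNT5A, at 7.67 on average in ELK3 KD and 4.06 in control arrays.

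In a fit over all 44988 probe sets naming a single gene, 56 of the 117 Wnt probe sets were called higher and 10 lower, against 24.6% and 24.3% of all probe sets. No Wnt gene had probe sets called in both directions. Of 30 genes with more than 1 probe set, 10 had all of them called the same way. These were WNT2B, WNT5A, WNT11, FZD3, FZD6, FZD8, ROR1, SFRP1, AXIN2 and LEF1. For WNT5B, FZD4, FZD5, FZD7, FZD10, LRP6, ROR2, DKK3, SFRP4, CTNNB1, TCF7L1 and TCF7L2 some probe sets were called and others were not.

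**Figure D2:**
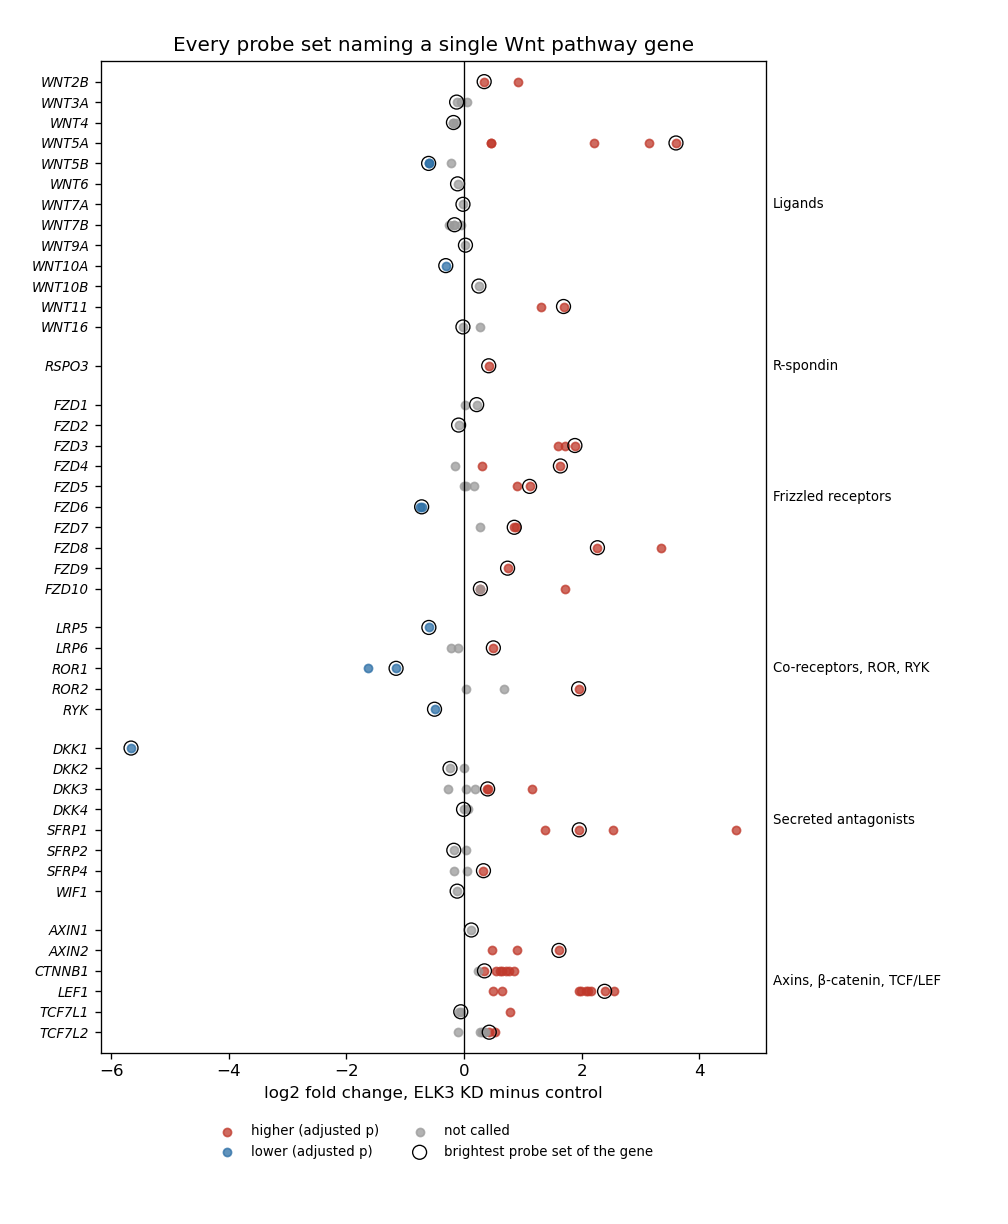
Log2 fold change (ELK3 KD minus control) of every one of the 117 probe sets naming a single Wnt gene, by gene and role, coloured by its call in the fit over all probe sets, with a ring on the brightest probe set of each gene. All 9 LEF1 and all 5 WNT5A probe sets lie on the higher side, while 2 of the 3 ROR2 probe sets were not called.

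Among the ligands, WNT5A and WNT11 were higher and most others did not pass the test. Of 13 measured ligands 3 were higher, 2 lower and 8 not called, or 23.1% higher and 15.4% lower, against 26.0% and 23.5% of all genes. The split was 2 higher and 5 lower with arrays centred on their median gene and 2 and 4 with quantile normalization applied again. Over all 18132 genes those settings gave 3883 higher and 6724 lower, and 4524 higher and 5043 lower. WNT5A, a ligand of the beta-catenin-independent branch, read 7.66 and 7.68 in ELK3 KD arrays, against 4.38 and 3.74 in control arrays. The ELK3 KD arrays lay close together and the control arrays apart, with no overlap between groups. The log2 fold change was 3.60 (SE 0.22, adjusted p = 0.000238 from limma), or 12.2-fold, the control values being below the guide. All 5 of its probe sets were called higher, by 0.45 to 3.60. WNT11, another ligand of that branch, known for convergent extension movements in embryos, read 7.16 and 6.67 in ELK3 KD arrays and 5.29 and 5.16 in control arrays. Both ELK3 KD values were above both control values, although they differed from each other by more than the control values did (log2 fold change 1.69, SE 0.18, adjusted p = 0.00128 from limma). WNT5B, a close relative of WNT5A, went the other way. It read 6.89 and 7.04 in ELK3 KD arrays against 7.62 and 7.52 in control arrays, 1.52-fold lower in ELK3 KD (adjusted p = 0.00456 from limma), with 2 of its 3 probe sets called lower. WNT2B was called at 0.34 and WNT10A at -0.31, small differences that lost the call without either of the ELK3 KD replicates, WNT2B also without control replicate 2 (highest adjusted p = 0.141 and 0.132 from limma). WNT10A was below the guide in both groups.
The other 8 ligands, most of them better known for signals through beta-catenin, gave no call. WNT3A had a log2 fold change of -0.13, WNT4 of -0.18, WNT6 of -0.11, WNT7A of -0.02, WNT7B of -0.16, WNT9A of 0.02, WNT10B of 0.25 and WNT16 of -0.02. WNT10B passed the test when control replicate 1 was left out, at 0.40 (adjusted p = 0.028 from limma). WNT7A, WNT7B and WNT9A lay below the guide in both groups. WNT3 was measured by no probe set naming it alone. Its 2 probe sets shared with a second gene read 5.83 and 5.70 in ELK3 KD against 6.01 and 5.86 in control arrays, and 7.07 and 7.13 in ELK3 KD against 6.49 and 6.65 in control arrays, and were not tested. PORCN, an enzyme that attaches the lipid to Wnt proteins, was not analysed here. RSPO3, an R-spondin that potentiates Wnt signals at the receptor, read 3.66 and 3.45 in ELK3 KD arrays and 3.01 and 3.26 in control arrays, all below the guide, and its call ended when ELK3 KD replicate 1, ELK3 KD replicate 2 or control replicate 1 was left out (highest adjusted p = 0.215 from limma).
To show what lies upstream of the member with the largest rise, the 250 bases before each of the 2 WNT5A transcript starts in RefSeq's promoter table are given 5' to 3' on the gene's strand (GRCh38.p14, minus strand, chr3:55487307-55487556 and chr3:55481399-55481648). Windows for 29 of the 43 genes were in the table. They were searched on both strands for the TCF/LEF words CTTTGAA and CTTTGTT, for their variants CTTTGAT and CTTTGTA, and for CCGGAAGT, an ETS word of the form that ELK factors bind. Of all 35116 windows of that length, 12.0% held a TCF/LEF word and 3.42% the ETS word. Matches are in capitals, and neither WNT5A window has one.
WNT5A, outer start: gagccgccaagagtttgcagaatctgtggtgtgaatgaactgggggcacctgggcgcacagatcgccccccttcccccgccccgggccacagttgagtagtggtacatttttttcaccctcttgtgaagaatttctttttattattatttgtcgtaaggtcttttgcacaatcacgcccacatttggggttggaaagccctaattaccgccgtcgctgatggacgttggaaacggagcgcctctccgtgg
WNT5A, inner start: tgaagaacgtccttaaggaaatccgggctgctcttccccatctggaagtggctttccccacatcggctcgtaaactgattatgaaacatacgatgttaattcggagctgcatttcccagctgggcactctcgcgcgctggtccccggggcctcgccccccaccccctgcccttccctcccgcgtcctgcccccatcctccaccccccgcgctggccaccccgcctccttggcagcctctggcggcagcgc

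Of the 10 Frizzled receptor genes, 7 were higher (70%), 1 was lower (10%) and 2 were not called. Of all genes 26.0% were called higher and 23.5% lower. The median log2 fold change of the 10 receptor genes was 0.80, and 9 of them had both group means above the guide. FZD8 differed most. It read 9.22 and 9.26 in ELK3 KD arrays against 7.04 and 6.90 in control arrays, so the groups were far apart and the replicates close (log2 fold change 2.27, SE 0.08, adjusted p = 6.61e-05 from limma, 4.82-fold). Its other probe set gave 3.35. FZD3, a receptor of planar polarity and axon guidance, read 7.94 and 7.77 in ELK3 KD and 6.04 and 5.90 in control arrays, a log2 fold change of 1.89, and its 3 probe sets were all called higher. FZD4, the receptor for norrin as well as Wnt proteins, read 7.41 and 7.31 in ELK3 KD against 5.71 and 5.73 in control arrays (log2 fold change 1.64, adjusted p = 0.00013 from limma). Of its other probe sets, 1 gave 0.31 and the other -0.15. FZD5 read 7.64 and 7.68 in ELK3 KD and 6.43 and 6.66 in control arrays, with 2 of 5 probe sets called higher and the other three between -0.01 and 0.17.
Smaller rises were those of FZD7 and FZD9. FZD7, which is often named as a receptor in triple-negative breast cancer, read 8.59 and 8.66 in ELK3 KD arrays and 7.70 and 7.84 in control arrays (log2 fold change 0.85, adjusted p = 0.00115 from limma). Of the 3 FZD7 probe sets 2 were called higher, and the other gave 0.27. FZD9 read 6.87 and 7.05 in ELK3 KD against 6.30 and 6.14 in control arrays. For both genes the lower ELK3 KD value was above the higher control value. FZD10 was called at 0.28, a call that ended when any 1 array was left out (adjusted p between 0.052 and 0.152 from limma), and its means lay below the guide, although another of its 3 probe sets gave 1.72. FZD6, known mainly for planar polarity, was the receptor that fell. It was bright in both groups, at 9.61 and 9.35 in ELK3 KD arrays against 10.15 and 10.25 in control arrays (log2 fold change -0.72, SE 0.11, adjusted p = 0.00511 from limma), and its second probe set gave -0.75. FZD2, at 9.04 and 8.93 in ELK3 KD and 8.97 and 9.18 in control arrays, overlapped between groups. FZD1 read 7.78 and 7.80 in ELK3 KD and 7.75 and 7.40 in control arrays, a difference of 0.21 that was not called, but passed the test when control replicate 1 was left out (0.39, adjusted p = 0.0275 from limma). Because probe sets differ in how strongly they bind, these levels give no order among the receptors.
The 250 bases before the FZD8 start are shown as those of the receptor with the largest change (GRCh38.p14, minus strand, chr10:35642297-35642546). They hold neither word.
FZD8: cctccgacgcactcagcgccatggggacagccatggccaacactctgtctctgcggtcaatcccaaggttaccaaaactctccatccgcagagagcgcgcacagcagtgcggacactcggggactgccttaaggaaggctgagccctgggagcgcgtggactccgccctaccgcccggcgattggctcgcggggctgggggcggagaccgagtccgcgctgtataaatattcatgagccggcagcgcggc

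**Figure D3:**
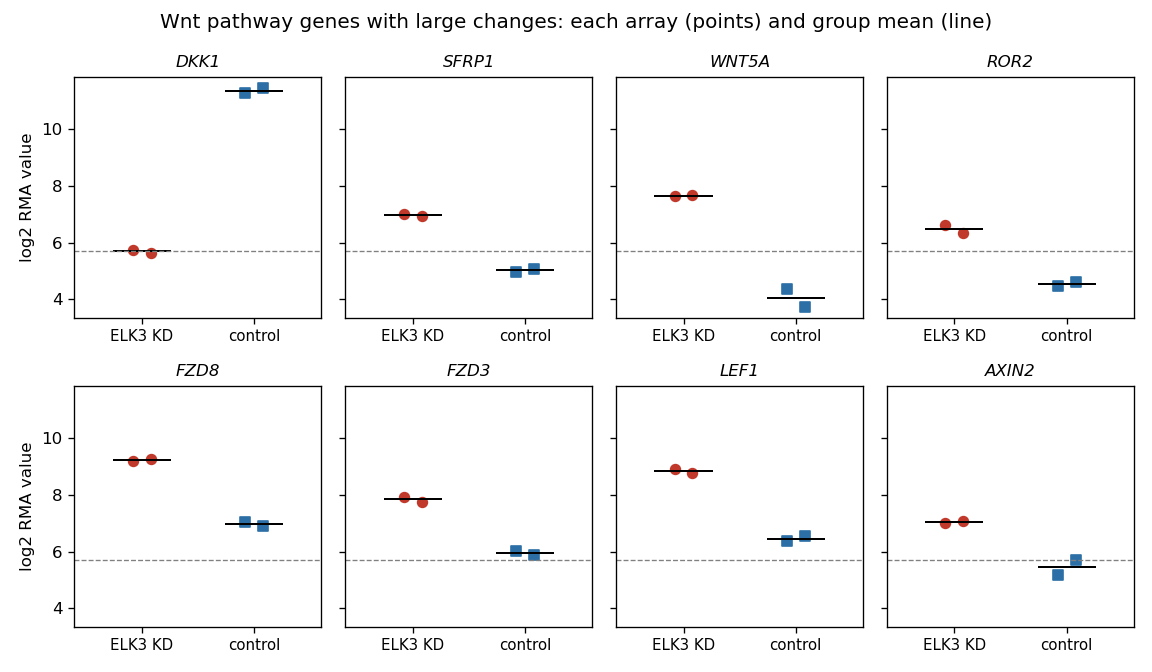
Log2 RMA values of 8 Wnt genes with large changes, with 2 arrays (points) and their mean (line) for ELK3 KD and control cells and a dashed line at the background guide of 5.71. DKK1 is the gene that is lower in ELK3 KD arrays. The panels were picked for large changes, and their groups do not overlap, as for 76.2% of all genes. The ROR2 values are from 1 probe set of a kind that can cross-hybridise.

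The co-receptors and alternative receptors were split. ROR1, a receptor tyrosine kinase-like protein that binds WNT5A, read 7.26 and 7.31 in ELK3 KD arrays against 8.29 and 8.59 in control arrays, a log2 fold change of -1.16 (SE 0.12, adjusted p = 0.00125 from limma). Its other probe set gave -1.64. ROR2, the second receptor of that family, read 6.61 and 6.36 in ELK3 KD and 4.47 and 4.60 in control arrays, a log2 fold change of 1.95 (SE 0.11, adjusted p = 0.000222 from limma). So 1 ROR gene was lower and the other higher, and neither pair of groups overlapped. The ROR2 call rests on 1 probe set of a kind that can cross-hybridise, and without such probe sets the log2 fold change of ROR2 was 0.03 (adjusted p = 0.886 from limma). Its dimmest probe set gave 0.68, with groups that did not overlap, and was not called (adjusted p = 0.106 from limma). RYK, an atypical receptor kinase with a WIF domain, read 9.67 and 9.57 in ELK3 KD arrays and 10.10 and 10.15 in control arrays. The difference, 1.42-fold lower in ELK3 KD, lost its call without ELK3 KD replicate 2 (adjusted p = 0.0547 from limma).
LRP5 and LRP6, which transmit the signal to beta-catenin, were called in opposite directions. LRP5 read 6.39 and 6.46 in ELK3 KD against 7.11 and 6.93 in control arrays (log2 fold change -0.60, adjusted p = 0.00532 from limma), and LRP6 read 9.08 and 8.96 in ELK3 KD against 8.48 and 8.56 in control arrays (log2 fold change 0.50, adjusted p = 0.00652 from limma). Both calls ended without ELK3 KD replicate 1 (adjusted p = 0.0568 and 0.0635 from limma). LRP6 changed sign without probe sets that can cross-hybridise, to -0.22 (adjusted p = 0.0705 from limma), since its other probe sets gave -0.22 and -0.11. The direction of LRP6 depended on the probe set read.

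DKK1 showed the widest difference of all Wnt genes. This secreted Dickkopf protein binds LRP5 and LRP6 and keeps them from the ligand, and DKK1 is itself known as a target of beta-catenin. It read 5.76 and 5.64 in ELK3 KD arrays, at the guide to background, against 11.27 and 11.46 in control arrays. The log2 fold change was -5.66 (SE 0.10, adjusted p = 1.82e-05 from limma), 50.7-fold lower in ELK3 KD, and DKK1 ranked 22 from the lowest among 18132 genes. A single probe set names DKK1. Its ELK3 KD values were at background level, which limits the fold.
The other antagonists had smaller differences. Of 8 measured antagonists, DKK1 included, 3 were higher (37.5%) and only DKK1 was lower (12.5%), against 26.0% and 23.5% of all genes. With arrays centred on their median gene 2 were higher and 3 lower, beside 3883 higher and 6724 lower of all 18132 genes. SFRP1, a secreted Frizzled-related protein that is often silenced in breast tumours, read 7.03 and 6.94 in ELK3 KD arrays and 4.97 and 5.08 in control arrays (log2 fold change 1.96, SE 0.08, adjusted p = 9.66e-05 from limma, 3.89-fold). All 4 of its probe sets were called higher, by 1.37 to 4.62, and its control values lay below the guide. DKK3, a Dickkopf relative that does not block Wnt signals in the same way, read 6.93 and 6.80 in ELK3 KD and 6.49 and 6.44 in control arrays. Of its 6 probe sets 3 were called higher, by up to 1.16, and its gene-level call at 0.40 ended without either ELK3 KD replicate or without control replicate 2 (highest adjusted p = 0.101 from limma). SFRP4, below the guide in both groups, was called at 0.33, which ended without either ELK3 KD replicate (highest adjusted p = 0.11 from limma). DKK2, DKK4, SFRP2 and WIF1 were not called and lay below the guide on all arrays.
The 250 bases before the DKK1 start follow, because DKK1 had the largest change and because it is 1 of 2 genes, with TCF7L2, whose window holds a TCF/LEF word (GRCh38.p14, plus strand, chr10:52314031-52314280). The words, in capitals, are CTTTGAA and CTTTGTT, which begin 95 and 76 bases before the start. No window of the 29 genes holds the ETS word, so no words overlapped.
DKK1: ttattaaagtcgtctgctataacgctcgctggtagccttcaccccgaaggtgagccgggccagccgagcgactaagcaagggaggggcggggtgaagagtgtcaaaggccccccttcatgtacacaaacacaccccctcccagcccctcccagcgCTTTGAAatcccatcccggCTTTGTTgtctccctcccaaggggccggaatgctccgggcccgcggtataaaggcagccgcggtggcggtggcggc

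Of the intracellular genes, LEF1 and AXIN2, both known to be induced by beta-catenin, were higher, and the gene of beta-catenin itself was higher by less. Of 6 measured genes 4 were higher (66.7%) and none was lower by limma, AXIN1 and TCF7L1 not being called. Of all genes 26.0% were called higher and 23.5% lower. LEF1, a DNA-binding partner of beta-catenin, read 8.91 and 8.78 in ELK3 KD arrays against 6.37 and 6.54 in control arrays. The log2 fold change was 2.39 (SE 0.10, adjusted p = 8.81e-05 from limma), 5.24-fold. All 9 LEF1 probe sets were called higher, by 0.50 to 2.54. AXIN2, a scaffold of the destruction complex and a feedback inhibitor, read 7.03 and 7.10 in ELK3 KD arrays and 5.19 and 5.71 in control arrays. The control arrays stood apart from each other, yet both were below the ELK3 KD arrays (log2 fold change 1.61, SE 0.18, adjusted p = 0.00166 from limma), and the 3 probe sets rose by 0.48 to 1.61. AXIN1, the constitutive scaffold, read 7.67 and 7.73 in ELK3 KD and 7.65 and 7.51 in control arrays.
CTNNB1, which encodes beta-catenin and is mainly regulated through protein stability, read 11.65 and 11.68 in ELK3 KD arrays and 11.33 and 11.31 in control arrays. The difference of 0.35 (1.27-fold, adjusted p = 0.0129 from limma) was larger than the spread within groups. Of the 8 CTNNB1 probe sets 7 were called higher, by 0.35 to 0.84, most of them by more than the brightest. The other gave 0.23 and was not called. Most of the called probe sets were of a kind that can cross-hybridise, the probe set at 0.84 not among them. Without such probe sets the call was lost, as it was with arrays centred on their median gene. The gene-level call ended without either ELK3 KD replicate (adjusted p = 0.0842 and 0.0976 from limma). TCF7L2, a broadly expressed TCF factor, read 9.03 and 8.88 in ELK3 KD and 8.52 and 8.54 in control arrays, a difference of 0.43 whose call ended without ELK3 KD replicate 1 or control replicate 1 (highest adjusted p = 0.0869 from limma). Of 7 TCF7L2 probe sets 2 were called higher, and the changes of all 7 ran from -0.11 to 0.53. The TCF7L2 call was also lost when the mean of all its probe sets was used. TCF7L1, usually a repressor, read 6.62 and 6.78 in ELK3 KD and 6.74 and 6.77 in control arrays, although 1 of its 3 probe sets rose by 0.78. TCF7 was not analysed here.
The 250 bases before the LEF1 transcript start in the table are given, as those of the transducer with the largest change (GRCh38.p14, minus strand, chr4:108166302-108166551). They hold neither word.
LEF1: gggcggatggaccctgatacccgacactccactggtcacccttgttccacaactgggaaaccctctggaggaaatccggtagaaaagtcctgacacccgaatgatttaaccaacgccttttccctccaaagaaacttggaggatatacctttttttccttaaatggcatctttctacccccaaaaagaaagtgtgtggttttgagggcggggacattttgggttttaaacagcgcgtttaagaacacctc

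Further genes of the pathway, in 5 lists, were measured with the same fit. Of 117 measured genes 50 were higher and 27 lower, or 42.7% and 23.1%, against 26.0% and 23.5% of all genes. With arrays centred on their median gene 39 were higher and 39 lower, beside 3883 higher and 6724 lower of all 18132 genes. Among other surface and secreted regulators 12 of 28 were higher and 3 lower (11 and 6 when centred, and 1 lower without any 1 of ELK3 KD replicate 1, ELK3 KD replicate 2 and control replicate 1), with 13 of the 28 below the guide in both groups. The glypicans GPC3 and GPC4, heparan sulphate proteins that hold Wnt proteins at the cell surface, averaged 8.70 and 8.06 in ELK3 KD arrays, against 3.90 and 3.40 in control arrays. SERPINF1, a secreted serpin that can bind LRP6, averaged 7.89 in ELK3 KD and 3.93 in control arrays, and LGR4, an R-spondin receptor, 8.28 in ELK3 KD and 4.96 in control arrays. Each of these control means lay below the guide.
Of 24 genes of the destruction complex and Dishevelled 11 were higher (45.8%) and 2 lower (8.33%), against 26.0% and 23.5% of all genes. NKD2, a Dishevelled-binding antagonist, averaged 6.40 in ELK3 KD and 4.40 in control arrays, CXXC4, another such antagonist, averaged 6.63 in ELK3 KD and 5.18 in control arrays, and FRAT2, an inhibitor of GSK3, 7.86 in ELK3 KD and 6.53 in control arrays. PPP2R5A, a phosphatase subunit, averaged 7.57 in ELK3 KD and 8.46 in control arrays. Over all 18132 genes, centring on the median gene gave 3883 higher and 6724 lower. Centring on the median of all probe sets gave 4439 and 4815, and quantile normalization applied again 4524 and 5043. The destruction complex list had 5 higher and 6 lower genes, 10 and 4, and 9 and 5 under these 3 settings in turn. It had 4 higher genes without ELK3 KD replicate 1, 5 without ELK3 KD replicate 2 and 6 without control replicate 1, and 1 lower gene without either ELK3 KD replicate or control replicate 2. Of 17 nuclear cofactors 10 were higher (58.8%) and 2 lower (11.8%), against 26.0% and 23.5% of all genes. EP300, a histone acetyltransferase and coactivator, rose by 1.19 and the deacetylase gene HDAC1 by 1.36 on the log2 scale. BCL9L, which links beta-catenin to its coactivators, averaged 8.98 in ELK3 KD and 10.38 in control arrays. The corepressor TLE4 read 7.25 and 7.13 in ELK3 KD and 6.29 and 5.09 in control arrays, a call lost without either ELK3 KD replicate (highest adjusted p = 0.15 from limma).
Genes often listed as beta-catenin targets moved both ways. Of 22 measured, 7 were higher (31.8%) and 9 lower (40.9%), against 26.0% and 23.5% of all genes. The median log2 fold change was -0.18. With arrays centred on their median gene 6 were higher and 13 lower, beside 3883 and 6724 of all 18132 genes. ID2, an inhibitor of helix-loop-helix factors, averaged 8.96 in ELK3 KD and 3.74 in control arrays. EDN1, the endothelin 1 gene, averaged 4.33 in ELK3 KD and 8.75 in control arrays, FOSL1, an AP-1 factor, 5.76 in ELK3 KD and 9.36 in control arrays, and the hyaluronan receptor gene CD44, 7.67 in ELK3 KD and 11.10 in control arrays. FOSL1 and CD44 also stand in the list of MDA-MB-231 markers, all of which were lower. Of 26 genes of the planar polarity and calcium branch 10 were higher (38.5%) and 11 lower (42.3%), against 26.0% and 23.5% of all genes. PLCB1, a phospholipase C, averaged 9.45 in ELK3 KD and 3.52 in control arrays, and the core polarity genes VANGL2 and CELSR1 rose by 2.55 and 2.41. NFATC2, a calcium-dependent transcription factor, averaged 5.65 in ELK3 KD and 7.98 in control arrays.

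**Figure D4:**
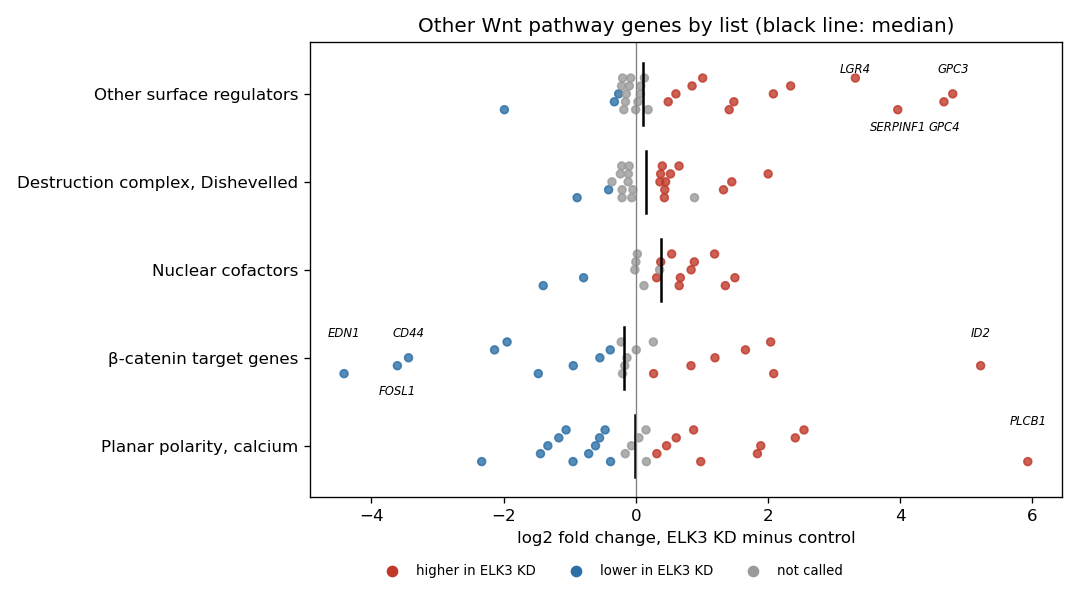
Log2 fold change (ELK3 KD minus control) of 117 other Wnt pathway genes in 5 lists, 1 point a gene coloured by its limma call, with the list median as a black line. The medians lie between -0.18 for the beta-catenin targets and 0.38 for the nuclear cofactors, and the outermost points are PLCB1 at 5.93 and EDN1 at -4.41.

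**Figure D5:**
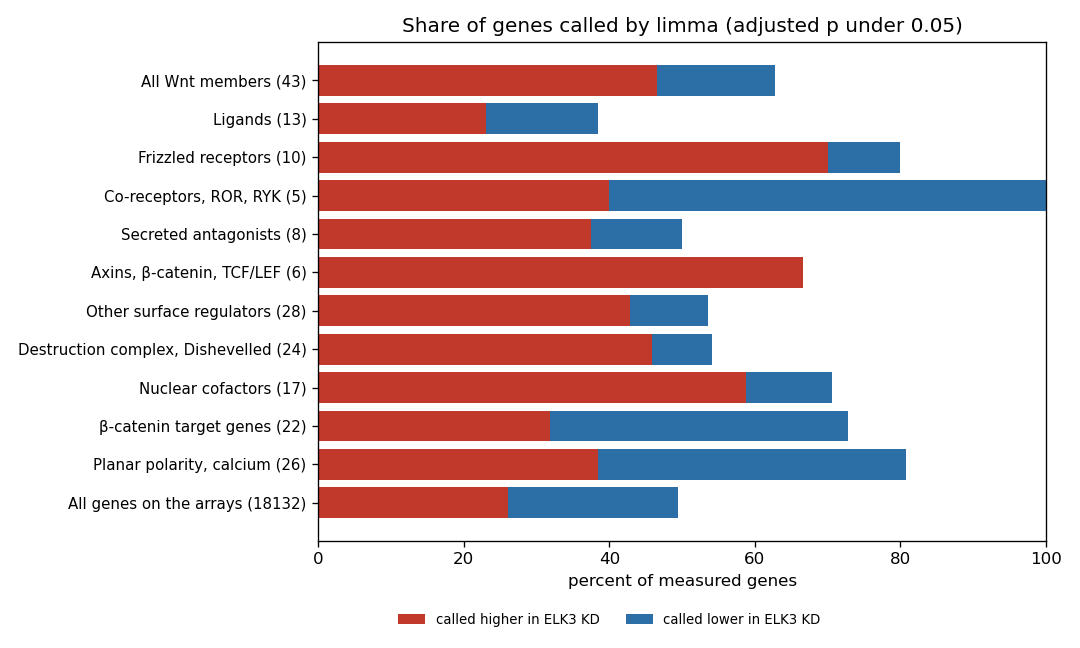
Percent of measured genes called higher (red) and lower (blue) in ELK3 KD by limma, for the Wnt genes by role, the other Wnt lists and all 18132 genes, with the number of genes in brackets. Of the Frizzled receptors 70% were called higher, and of all genes 26.0%.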

How the data were processed

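Expression was measured on 4 arrays of total RNA, 2 of ELK3 KD and 2 of control cells, all labelled MDA-MB-231. Log2 intensities of 49395 probe sets were deposited; per the submitters' processing notes they come from Affymetrix Expression Console (version not given in the sources used here) with RMA, which corrects background, normalizes between arrays and summarises probes. The paper's methods name an Illumina BeadChip, whereas the probe set names are of Affymetrix form. RMA can understate differences of dim genes, and scanner files were not used here. Probe sets naming 1 gene numbered 44988, of which 44961 matched a RefSeq gene (GRCh38.p14). Probe sets naming several genes (1832) or none (2473) and 102 controls were left out.

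Each of 18132 genes was represented by its brightest probe set on average, without a filter on dim genes. The test was that of limma 3.58.1 under R 4.3.3 (lmFit, eBayes, no block, two-sided, Benjamini-Hochberg at 0.05). The fit was tested on simulated data. The number of arrays limits the precision. Members, lists, the guide to background and tests were chosen with earlier results of these data known. Every member may be named. Of each other list the 4 called genes with the largest change were named. Python 3.11.15 and matplotlib 3.10.9 were used for plots. Alternatives were other scalings, probe set rules, filters, variance models, the methods' t-test, a replicate block and each array left out.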

Additional observations from a re-analysis of the deposited data

How the results depend on the processing

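Among the 20 higher and 7 lower Wnt genes, the calls of 16 genes held whichever array was left out, WNT5A, WNT5B, WNT11, FZD3, FZD4, FZD5, FZD6, FZD7, FZD8, FZD9, ROR1, ROR2, DKK1, SFRP1, AXIN2 and LEF1. Of these, WNT5B, WNT11, FZD6, FZD9, ROR1 and AXIN2 lost the call by the methods' t-test after adjustment. ROR2 lost it without probe sets that can cross-hybridise. With 1 array left out, higher Wnt genes numbered 12 to 19, lower ones 5 to 7, higher Wnt probe sets 39 to 53 and lower ones 6 to 10. Counts in the other pathway lists ran from 35 to 46 higher and 20 to 25 lower. Where a group is left with 1 array, that array is assumed to vary like the other group. Higher genes numbered 8 of 18 tested among genes above the median level, 12 by the methods' t-test after Benjamini-Hochberg adjustment, 10 past 2-fold and 3 past 4-fold with no test. Lower genes numbered 12 with arrays centred on their median gene, 3 by the methods' t-test after adjustment, 2 past 2-fold and 1 past 4-fold. Over all 18132 genes 1743 were called higher and 1237 lower past 2-fold, and 578 and 421 lay past 4-fold. With arrays centred on their median gene 3883 of all genes were higher and 6724 lower. Centring on the median of all probe sets, added after the data were seen, gave 4439 higher and 4815 lower of all genes. Of the Wnt genes it gave 19 higher and 7 lower. Under the replicate block, which treats same-numbered arrays as pairs although they share only a number (the difference of replicate 1 minus 2 correlated at 0.01 between ELK3 KD and control over genes), 17 were higher and 7 lower, with 51 higher and 10 lower probe sets and 47 higher and 24 lower genes in the other lists. The calls of FZD10, RSPO3 and WNT2B ended under it. LRP6 changed sign without probe sets that can cross-hybridise (-0.22), and the calls of LRP6, ROR2 and CTNNB1 were lost. Changes of sign among values not called in either setting, 16 in all, were not counted as reversals. Background limits the size of differences whose lower mean lies below 5.71, DKK1 and WNT5A among them.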
